A study of Mus musculus with 14 samples.

Results

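The 37 genes described here encode proteins that copy DNA or that act at the start and during S phase, the stretch of the cell cycle in which the genome is replicated. They were chosen by name, and all 37 were among the 35519 genes counted. Their transcripts were counted in 14 libraries, each from 1 primary mouse cell line that was started from an embryo at E13.5. There were 3 KO neurosphere lines, 3 WT neurosphere lines, 5 KO MEF lines and 3 WT MEF lines, all without treatment. KO lines carry a targeted allele of H3f3a, of the kind named knockout-first in the series title, and WT lines do not carry it. H3f3a is a gene for the histone variant H3.3, a form of histone H3 that is placed into chromatin outside replication. Neurospheres, floating cultures of neural stem and precursor cells, came from heads, and MEFs, embryonic fibroblasts, came from bodies without internal organs. The labels do not say whether lines of both cell types came from the same embryos, and neither the position of the cassette in the allele nor the passage of the cultures is given in the sources used here.

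Replication starts at origins, where Cdc6 and Cdt1 help to load the ring of Mcm2 to Mcm7 onto DNA. In S phase Cdc45 and the GINS proteins join this ring to form the active helicase, primase and DNA polymerases copy both strands, and the clamp Pcna, opened and closed by the RFC complex, holds polymerases on DNA. Many of these genes are targets of E2F transcription factors, which the retinoblastoma protein restrains and which are released when cells enter S phase, so their transcripts are abundant in dividing cells and scarce in resting ones.

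By role, 11 of the genes encode helicase subunits (Mcm2 to Mcm7, Cdc45 and Gins1 to Gins4), 3 act in loading and firing (Cdc6, Cdt1 and Mcm10), 6 encode the clamp and its loader (Pcna and Rfc1 to Rfc5) and 4 encode polymerases and primase (Pola1, Prim1, Pold1 and Pole). A further 4 supply nucleotides (Rrm1 and Rrm2 of ribonucleotide reductase, the thymidylate synthase Tyms and the thymidine kinase Tk1), 3 act in lagging strand synthesis or repair (the flap nuclease Fen1, the ligase Lig1 and the uracil glycosylase Ung), and 2 encode subunits of the single-strand binding protein RPA (Rpa1 and Rpa2). The last 4 are S phase regulators: the cyclin E genes Ccne1 and Ccne2, the transcription factor gene E2f1, and Slbp, whose protein binds the stem-loop of replication-dependent histone mRNAs.

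Libraries held 1669867 to 2694352 counts in KO neurospheres, 2020531 to 2875391 in WT neurospheres, 2081058 to 3030289 in KO MEFs and 2655595 to 3296493 in WT MEFs. Levels are given as CPM, counts relative to library size and scaled with TMM factors over all 14 libraries, and they compare lines, not genes. H3f3a was at 26.2 to 70.9 CPM in KO neurospheres and 1969 to 2417 CPM in WT neurospheres, and at 7.29 to 18.8 CPM in KO MEFs and 847 to 1427 CPM in WT MEFs. The 12 neural stem and precursor markers summed to 10428 to 14622 CPM in KO neurospheres and 8989 to 13703 CPM in WT neurospheres, against 147 to 389 CPM in KO MEFs and 228 to 298 CPM in WT MEFs. The 12 fibroblast markers summed to 67.3 to 109 CPM in KO neurospheres and 96.3 to 197 CPM in WT neurospheres, against 17636 to 26877 CPM in KO MEFs and 20366 to 22688 CPM in WT MEFs. Col3a1, Pdgfrb and Postn had 0 counts in KO neurospheres, and Olig2 had 0 counts in all MEF lines.

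Some members overlap or resemble other genes at their 3′ ends, so their counts are less certain. Cdt1 ends within Gm20388 on the same strand. Genes on the opposite strand reach the ends of Mcm7, Gins2, Rfc2, Rfc4, Rfc5, Tk1 and Ccne2, and whether the counting used strand is not given in the sources used here. In some ends a repeat-like stretch of at least 75 bases was at least 95% identical to transcripts of other genes, at any position in them. Such an end holds 34.1% of the reads of Pola1, 8.18% of those of Mcm2 and the main transcript of Mcm5. An end of Slbp with 6.82% of its reads resembles Btbd9 in the same way, and the main transcript of Mcm7 resembles Gm5487, which had 0 counts.

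The promoters of these genes were searched for E2F-type words. The 6 sequences that follow are the 150 bases before the annotated start, 5′ to 3′ on the gene's strand, from the RefSeq promoter table of GRCm38.p6. They are the members with such a word in this stretch. Capitals mark the bases of a word TTTCCCGC, TTTGGCGC, TTTCGCGC or TTTGCCGC, read on either strand, and overlapping words run together. In Mcm5 the first of a pair of overlapping words begins before the stretch shown.
Mcm5, chr8:75109359-75109508, plus strand: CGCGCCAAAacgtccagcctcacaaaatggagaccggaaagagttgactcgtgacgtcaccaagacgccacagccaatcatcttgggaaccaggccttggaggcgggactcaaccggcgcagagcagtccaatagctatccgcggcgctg
Mcm6, chr1:128359706-128359855, minus strand: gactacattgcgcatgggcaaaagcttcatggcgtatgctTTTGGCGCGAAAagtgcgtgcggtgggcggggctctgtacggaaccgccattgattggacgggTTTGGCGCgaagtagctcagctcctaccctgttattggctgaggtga
Gins3, chr8:95633409-95633558, plus strand: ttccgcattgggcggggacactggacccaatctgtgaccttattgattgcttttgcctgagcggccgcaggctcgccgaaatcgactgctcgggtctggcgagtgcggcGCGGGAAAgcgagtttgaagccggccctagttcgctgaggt
Cdc6, chr11:98908001-98908150, plus strand: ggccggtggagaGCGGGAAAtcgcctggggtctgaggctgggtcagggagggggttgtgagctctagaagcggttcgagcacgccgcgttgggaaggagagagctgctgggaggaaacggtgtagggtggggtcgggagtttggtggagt
Rfc3, chr5:151651209-151651358, minus strand: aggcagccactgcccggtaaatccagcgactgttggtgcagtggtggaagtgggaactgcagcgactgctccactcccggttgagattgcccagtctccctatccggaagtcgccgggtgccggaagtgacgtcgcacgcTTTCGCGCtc
Pola1, chrX:93632156-93632305, minus strand: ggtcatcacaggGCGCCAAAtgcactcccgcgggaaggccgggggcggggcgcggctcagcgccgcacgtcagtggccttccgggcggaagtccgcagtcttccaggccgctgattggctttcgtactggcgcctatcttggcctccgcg

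Of the 37 genes, 30 had an entry in the promoter table, and 11 of these 30 (36.7%) held at least 1 of the 4 E2F words between 250 bases before and 50 bases after the start. Over all genes listed there, 704 of 27025 (2.605%) held one, and among the genes tested in MEFs 404 of 8411 (4.80%) did. The 11 genes were Mcm3, Mcm5, Mcm6, Mcm7, Gins3, Cdc6, Cdt1, Rfc3, Pola1, Pold1 and Lig1. Mcm6, a subunit of the helicase ring, held 3 words before its start, at -110 to -103, -106 to -99 and -47 to -40. The word CCAAT, searched on both strands, was in 18 of the 30 promoters (60%), against 41.1% of all and 43.5% of those tested in MEFs. TTTGAA, a word found in promoters of genes for mitosis, was in 4 of 30 (13.3%), against 20.2% and 14.3%. These matches describe letters in the windows and are not measured binding sites, and their part in the levels of the members was not tested.

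The members varied more from line to line in neurospheres than in MEFs. Their counts summed to 602, 521 and 1999.7 CPM in KO neurospheres 1 to 3 and to 515, 857 and 1159.7 CPM in WT neurospheres 1 to 3. In KO MEFs 1 to 5 the sums were 2077, 2933, 2345, 2088 and 2026 CPM, and in WT MEFs 1 to 3 they were 1860.4, 2697 and 2099 CPM. KO neurospheres 3 lay above WT MEFs 1, the lowest MEF line, and the other 5 neurosphere lines lay below all 8 MEF lines. The median SD of log2(CPM + 1) over lines was 0.99 for the 37 members in neurospheres, against 0.39 for all 10628 genes tested there. In MEFs it was 0.32 for the members and 0.35 for all 10789 genes tested. In bulk samples such as these, fewer cells in S phase and less of these RNAs per cell cannot be told apart.

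**Figure D1:**
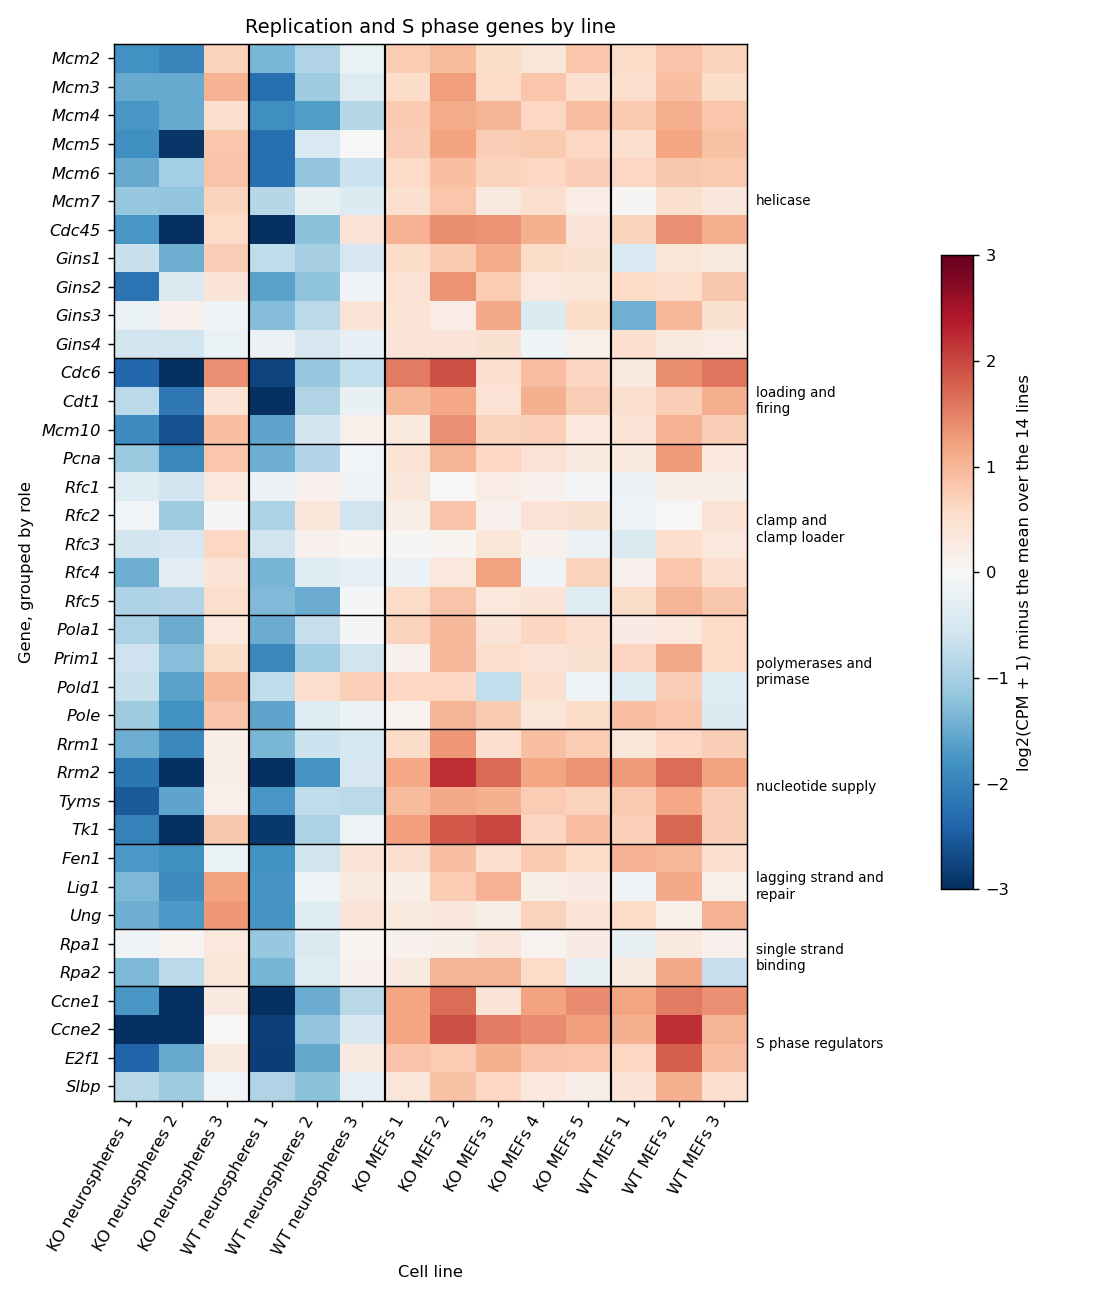
Level of each of the 37 members in each line, as log2(CPM + 1) minus the gene's mean over all 14 lines, with the colour scale ending at -3 and 3. Columns are lines, from KO neurospheres, WT neurospheres and KO MEFs to WT MEFs, and genes are ordered by role. KO neurospheres 3 stands above the other neurosphere lines for 33 of the 37 genes.

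KO neurospheres 3 had the highest level of the 6 neurosphere lines for 33 of 37 members, while it was highest for 17.8% of all tested genes. The exceptions were Gins3, Gins4, Rfc2 and Fen1. Over the members its level was a median 4.37 times the mean of KO neurospheres 1 and 2. It was 4.37 too with these 2 libraries counted at no fewer than 3 counts. For 11 members the ratio rests on 3 counts or fewer in 1 or both of these libraries. In the roles without such members the median ratio was 2.45 for the clamp and its loader and 2.03 for RPA. KO neurospheres 2 was the lowest line for 20 of 37 members (25.7% of all tested genes), and WT neurospheres 1 for 13 (12.6% of all tested genes). Lines tied at 0 counts, as for Cdc45, are each counted. Between neurosphere lines Tk1 varied most, with an SD of 1.96 on the log2(CPM + 1) scale, and Gins4 least, with an SD of 0.19.

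Rrm2, the regulated subunit of ribonucleotide reductase (ENSMUSG00000020649.11, chromosome 12, 24708241 to 24714146, plus strand), had 14.04, 3.01 and 76.6 CPM in KO neurospheres 1 to 3 and 5.36, 18.7 and 46.6 CPM in WT neurospheres 1 to 3. Ccne2, a cyclin that starts S phase (ENSMUSG00000028212.16, chromosome 4, 11191351 to 11204779, plus strand), had 0.826, 0.601 and 19.6 CPM in KO neurospheres and 1.91, 7.94 and 13.51 CPM in WT neurospheres. Tk1, which salvages thymidine, had 4.96, 0 and 42.0 CPM in KO neurospheres and 2.30, 11.7 and 20.97 CPM in WT neurospheres. In each of these 3 genes, named after their values were seen, KO neurospheres 3 was the highest line and the other KO lines lay below WT neurospheres 2 and 3. Rfc1, the large subunit of the clamp loader, spread less, with 75.6, 66.7 and 125 CPM in KO neurospheres and 88.4, 109.8 and 89.6 CPM in WT neurospheres. KO neurospheres 2 had 0 counts of Cdc45, Cdc6 and Tk1, which allows up to 1.80 CPM in that library, and WT neurospheres 1 had 0 counts of Cdc45, which allows up to 1.15 CPM. KO neurospheres 2 was also the library with the fewest counts, and 10 members had 3 counts or fewer in it.

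Genes of mitosis and G2/M and further replication genes were highest in the same neurosphere line as the members. The 38 genes of mitosis and G2/M summed to 848, 201 and 3743 CPM in KO neurospheres 1 to 3 and 590.4, 1613 and 2181 CPM in WT neurospheres 1 to 3. KO neurospheres 3 was highest for 36 of these 38 genes and KO neurospheres 2 lowest for 34. The 47 further replication genes with counts summed to 801, 708 and 1783 CPM in KO neurospheres and 698, 934 and 1146 CPM in WT neurospheres, with KO neurospheres 3 highest for 41 of 47. The 8 neuron markers summed to 1575, 1514 and 1260.0 CPM in KO neurospheres and 1509, 1452 and 1294 CPM in WT neurospheres. Most of these sums was Map2, at a mean of 1366 CPM in KO and 1344 CPM in WT neurospheres. With ties counted for each line, KO neurospheres 3 was lowest for 6 of these 8 markers and WT neurospheres 3 for 4. Stmn2, with 0 counts in all KO neurospheres, is among the ties. The part of these markers in the result was not tested. Markers of glia took other orders over the lines. The 5 astrocyte markers summed to 1079, 2334 and 2274 CPM in KO neurospheres and 1030.0, 2804 and 757 CPM in WT neurospheres, and the 7 markers of the oligodendrocyte lineage to 195, 35.5 and 30.1 CPM in KO neurospheres and 89.2, 29.9 and 96.7 CPM in WT neurospheres. WT neurospheres 1, a low line for the members, had the highest level of 9 of 12 fibroblast markers in neurospheres.

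**Figure D2:**
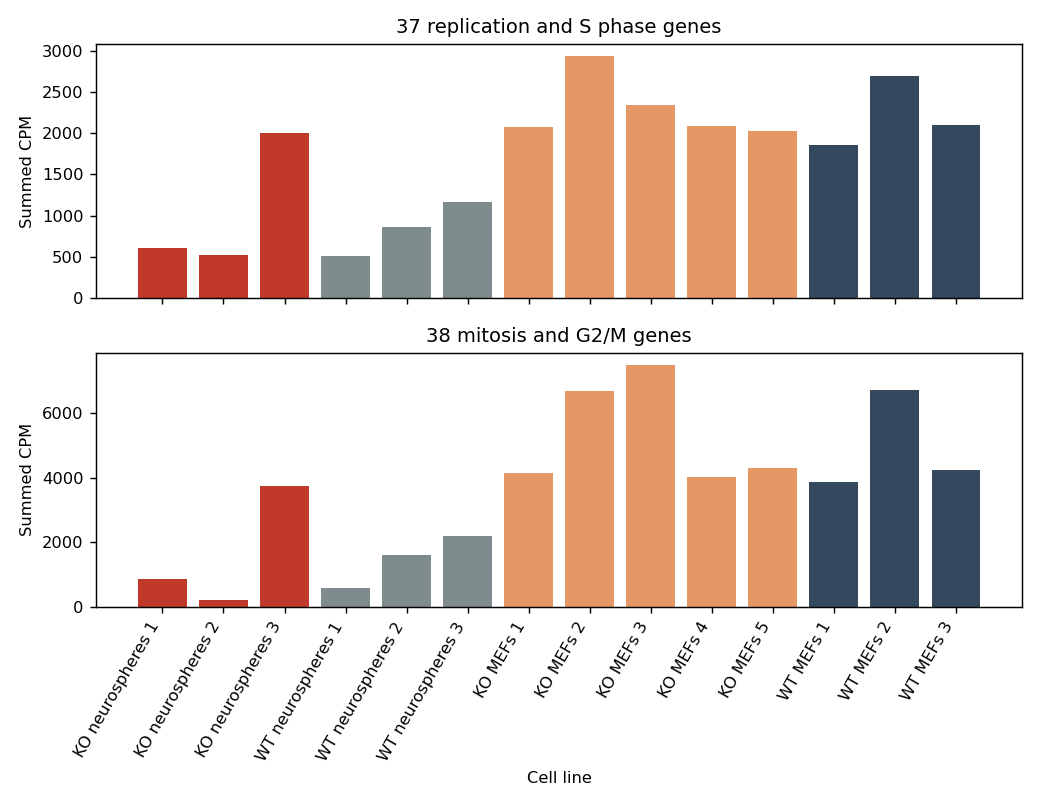
Summed level of the 37 members and of 38 genes of mitosis and G2/M in each line, in CPM. Each bar is 1 line, in the order KO neurospheres, WT neurospheres, KO MEFs and WT MEFs. KO neurospheres 3, at 1999.7 CPM for the members and 3743 CPM for mitosis and G2/M, stands above the other 5 neurosphere lines in both.

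The comparison of KO with WT neurospheres asked whether the targeted H3f3a allele goes with another level of these genes in neural precursors. None of the 34 members tested passed, and their values were mostly higher in KO lines with KO neurospheres 3 in the fit and mostly lower without it. By edgeR's quasi-likelihood test with Benjamini-Hochberg adjustment, H3f3a was the 1 gene of 10628 (0.00941%) with an adjusted p under 0.05. DESeq2 called 7 genes, none of them a member. At an unadjusted p under 0.05 there were 0 members by edgeR, against 2.14% of all genes. Cdc45, Cdc6 and E2f1 did not pass the filter on low counts. The log2 difference was positive for 28 members and negative for 6, with a median of 0.35, while the median of all genes was 0.011 and 51.3% of them were positive. No member had KO lines all above or all below the WT lines, which held for 3.34% of all genes upwards and 3.87% downwards.

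The helicase held 9 positive values among 10 tested, with a median log2 of 0.42. Mcm6 (ENSMUSG00000026355.11, chromosome 1, 128331590 to 128359664, minus strand) had 21.1, 30.1 and 113 CPM in KO neurospheres and 12.3, 26.6 and 39.5 CPM in WT neurospheres. KO neurospheres 1 and 2 lay inside the WT range and KO neurospheres 3 far above it. Its log2 difference was 1.097 (SE 0.72, 95% interval -0.61 to 2.80, edgeR adjusted p = 0.999). Mcm4, another ring subunit (ENSMUSG00000022673.5, chromosome 16, 15623897 to 15637400, minus strand), had 30.1, 35.5 and 143 CPM in KO neurospheres and 27.95, 31.8 and 56.2 CPM in WT neurospheres, a log2 difference of 0.88 (SE 0.65). Mcm3, also of the ring, had 16.1, 16.2 and 99.7 CPM in KO neurospheres and 9.19, 22.4 and 36.6 CPM in WT neurospheres, with a log2 difference of 0.99 (SE 0.86). For both, KO neurospheres 1 and 2 lay within the WT range and KO neurospheres 3 above it. Gins1, a GINS subunit (ENSMUSG00000027454.10, chromosome 2, 150905400 to 150931280, plus strand), had 4.96, 2.40 and 14.7 CPM in KO neurospheres and 4.59, 3.74 and 5.69 CPM in WT neurospheres, a log2 difference of 0.71 (SE 0.66). KO neurospheres 2 lay below the WT lines of Gins1, KO neurospheres 1 among them and KO neurospheres 3 above them. Mcm2, Mcm5, Mcm7 and Gins2 to Gins4 lay between -0.13 and 0.47.

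Among polymerases and primase, Prim1, the catalytic subunit of primase (ENSMUSG00000025395.14, chromosome 10, 128015168 to 128030037, plus strand), had 9.09, 5.41 and 21.7 CPM in KO neurospheres and 3.06, 6.54 and 9.24 CPM in WT neurospheres. KO neurospheres 2 lay inside the WT range, KO neurospheres 1 at its upper end and KO neurospheres 3 above it. The log2 difference was 0.97 (SE 0.62, 95% interval -0.44 to 2.38, edgeR adjusted p = 0.999). Rpa1, the large subunit of RPA (ENSMUSG00000000751.13, chromosome 11, 75298166 to 75348324, minus strand), had 42.1, 47.5 and 56.0 CPM in KO neurospheres and 19.9, 33.2 and 48.0 CPM in WT neurospheres. Its groups overlapped between 42.1 and 48.0 CPM, and the log2 difference was 0.54 (SE 0.35, 95% interval -0.26 to 1.33). All 4 nucleotide supply genes were positive, between 0.073 and 0.49. Fen1, which trims flaps on the lagging strand, had the most negative value, at -0.66 (SE 0.76). Of the clamp and its loader 4 of 6 were positive, with a median of 0.24.

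These values rested on KO neurospheres 3. Without it, 3 of 34 members were positive, namely Gins3, Prim1 and Rpa1, and the median was -0.64. No member was called then either. An unadjusted p under 0.05 by edgeR was found for 5, against 6.09% of all genes: Mcm2, Mcm7, Mcm10, Rrm1 and Ccne2, all negative. KO neurospheres 3 was the highest neurosphere line for 33 of 37 members, so leaving it out moves these values down by the choice of line. These p values are therefore no test of a lower level in KO lines. The log2 difference without KO neurospheres 3 was -0.044 for Mcm6, -0.24 for Mcm4, -0.50 for Mcm3 and -0.32 for Gins1, while it was 0.21 for Prim1 and 0.40 for Rpa1. With other single lines left out, the median was 0.68 without KO neurospheres 1 and 0.64 without KO neurospheres 2. It was 0.02 without WT neurospheres 1 and 0.80 without WT neurospheres 3. In simulated counts of this design 44% of 4-fold changes and 4% of 2-fold changes were found, so most 2-fold changes would be missed with 3 lines a group. The changed genes were drawn from all genes of at least 5 CPM. The members varied more in neurospheres (median SD 0.99 against 0.39 for all genes tested), and the rates for them were not measured.

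**Figure D3:**
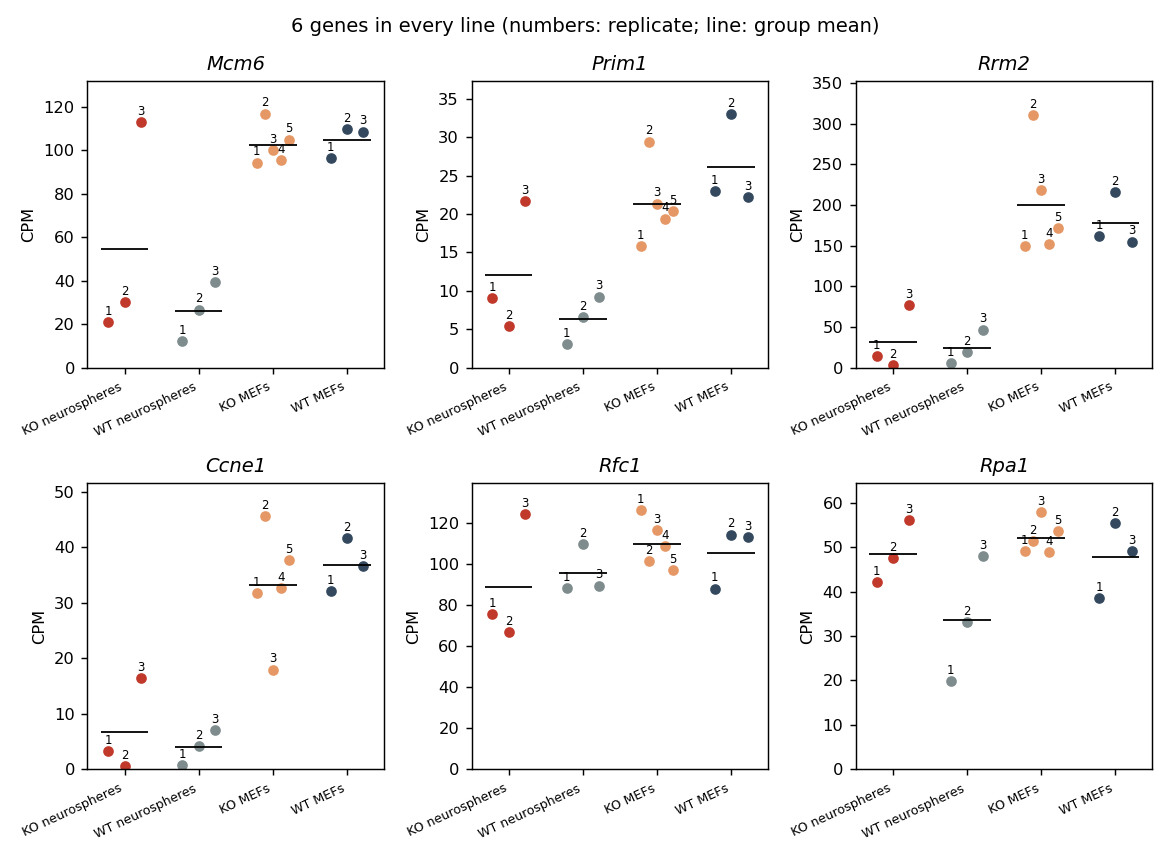
Level of Mcm6, Prim1, Rrm2, Ccne1, Rfc1 and Rpa1 in each line, in CPM on linear axes from 0. Each point is 1 line, labelled with its replicate number, and the horizontal line is the group mean. In neurospheres the KO and WT lines overlap, with KO neurospheres 3 highest in all 6 genes.

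In MEFs, the members' summed level differed between KO and WT lines by less than the spread between lines. The summed level was 2294 ± 378 CPM in KO MEFs (SD, n = 5) and 2219 ± 431 CPM in WT MEFs (SD, n = 3). All 37 members were tested and 0 passed, while 1 of 10789 genes (0.00927%), H3f3a, passed by edgeR with Benjamini-Hochberg adjustment and likewise 1 by DESeq2. At an unadjusted p under 0.05 there were 0 members and 1.62% of all genes. The log2 difference was positive for 20 members and negative for 17, with a median of 0.014, beside -0.0014 for all genes. It stayed between -0.42 (Rfc5) and 0.63 (Gins1).

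Gins1 was the member whose groups did not overlap, which held for 0.918% of all genes upwards and 0.936% downwards. It had 12.8, 15.4, 19.4, 12.8 and 12.1 CPM in KO MEFs 1 to 5 and 5.95, 11.1 and 10.7 CPM in WT MEFs 1 to 3. All 5 KO lines lay above the 3 WT lines. The log2 difference was 0.63 (SE 0.30, 95% interval -0.031 to 1.30, edgeR adjusted p = 1.00). Pola1, the catalytic subunit of polymerase alpha, had 109, 134, 88.4, 105 and 95.5 CPM in KO MEFs and 79.8, 84.1 and 102 CPM in WT MEFs, with overlapping groups and a log2 difference of 0.26 (SE 0.17). Rfc2, a clamp loader subunit, had 31.4, 50.7, 30.1, 37.5 and 37.7 CPM in KO MEFs and 25, 27.0 and 37.2 CPM in WT MEFs (log2 0.33, SE 0.22). Here WT MEFs 3 lay inside the KO range and the other WT lines below it. Rfc5, of the same complex, had 16.9, 20.9, 14.1, 14.9 and 8.30 CPM in KO MEFs and 16.7, 23.4 and 20.1 CPM in WT MEFs (log2 -0.42, SE 0.29), with KO MEFs 5 lowest.

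Rrm1, the large subunit of ribonucleotide reductase (ENSMUSG00000030978.10, chromosome 7, 102441695 to 102469771, plus strand), had 192, 323, 186, 242 and 221 CPM in KO MEFs and 167, 199.9 and 217 CPM in WT MEFs (log2 0.26, SE 0.20). KO MEFs 2 was the highest line and the groups overlapped. E2f1, whose protein drives transcription of S phase genes, had 16.6, 15.4, 19.4, 16.7 and 16.2 CPM in KO MEFs and 13.9, 33.4 and 17.4 CPM in WT MEFs (log2 -0.36, SE 0.29). The 5 KO lines lay close together, WT MEFs 2 stood far above, and without WT MEFs 2 the log2 difference was 0.10. By role, the 4 nucleotide supply genes all had positive values (median 0.21), the 4 S phase regulators all had negative values (median -0.18), and the helicase had 6 of 11 positive (median 0.014). KO MEFs 2 was the highest MEF line for 17 of 37 members (13.6% of all tested genes) and WT MEFs 2 for 11 (19.7% of all tested genes). WT MEFs 2 also had the highest sum of the 10 macrophage and blood markers, at 186 CPM, against 19.4 to 90.8 CPM in KO MEFs and 64.3 to 71.8 CPM in the other WT MEFs, and their part in the result was not tested. With single lines left out, the members' median stayed between -0.07 (without KO MEFs 2 or WT MEFs 1) and 0.16 (without WT MEFs 2).

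**Figure D4:**
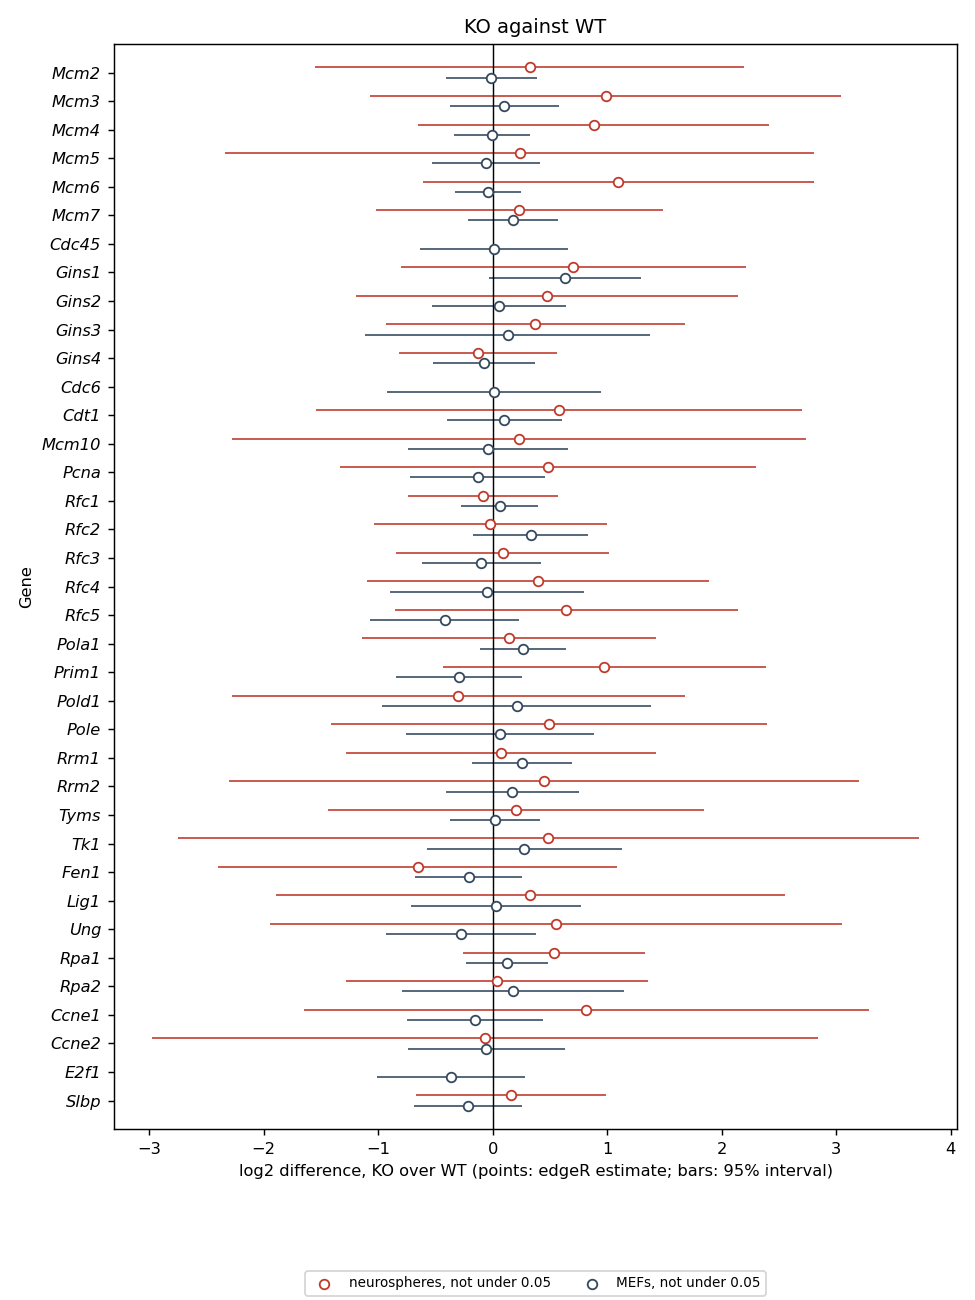
Difference between KO and WT lines for each member, as log2 KO over WT with its 95% interval from edgeR, in neurospheres (red) and in MEFs (navy). Open points did not pass at an adjusted p under 0.05, which holds for all points shown, and Cdc45, Cdc6 and E2f1 were not tested in neurospheres. Intervals are wider in neurospheres than in MEFs for all 34 genes tested in both.

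Neurospheres were set against MEFs in KO lines and, apart from them, in WT lines, so that these comparisons share no library. In KO lines, 12 of 37 members (32.4%) fell in neurospheres and 0 rose, while 26.1% of all 11417 genes fell and 25.4% rose, so this share was near that of all genes. In WT lines, 17 of 37 members (45.9%) fell and 0 rose, while 20.8% of all 11084 genes fell and 20.8% rose. The log2 difference was negative for all 37 members in KO lines, with a median of -1.0 beside -0.02 for all genes, and for 36 of 37 in WT lines, with a median of -1.39 beside 0.02. KO neurosphere lines all lay below the KO MEF lines for 13 members (35.1%), beside 25.6% of all genes. WT neurosphere lines all lay below the WT MEF lines for 27 members (73.0%), beside 28.9% of all genes. Mitochondrially encoded transcripts took 12.9% to 16.8% of counts in neurospheres and 5.27% to 6.15% in MEFs. With these transcripts left out of totals and test, 12 members were called in KO lines and 17 in WT lines, as many as with them. The shares of all genes in these fits are not given here. Cdc45, Cdc6 and E2f1 did not pass the filter on low counts in neurospheres and entered here through MEFs, where they are higher. They are all among the 27 members apart in WT lines, and E2f1 is among the 13 in KO lines. Among the 34 other members 11 (32.4%) fell in KO lines and 16 (47.1%) in WT lines, beside 21.3% and 16.6% of all genes that passed the filter in neurospheres.

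Passing in both comparisons were 7 members: Mcm4 of the helicase, the nucleotide supply genes Rrm1, Rrm2 and Tyms, and the S phase regulators Ccne1, Ccne2 and Slbp. This is 18.9% of the 37 members, beside 18.7% of the 10863 genes tested in both comparisons, so the share was close to that of all genes. Ccne1 (ENSMUSG00000002068.16, chromosome 7, 38097984 to 38107534, minus strand) had 3.304, 0.601 and 16.4 CPM in KO neurospheres and 31.8, 45.6, 17.97, 32.6 and 37.7 CPM in KO MEFs. In WT lines it had 0.766, 4.20 and 7.11 CPM in neurospheres and 32.1, 41.7 and 36.6 CPM in MEFs. No neurosphere line reached the lowest MEF line, KO MEFs 3. Ccne1 was 4.51-fold lower in KO neurospheres (log2 -2.17, SE 0.69, edgeR adjusted p = 0.0253) and 8.86-fold lower in WT neurospheres (log2 -3.15, SE 0.58, adjusted p = 0.00459). Ccne2 had 44.9, 76.1, 58.3, 53.1 and 46.8 CPM in KO MEFs and 41.3, 92.1 and 40.3 CPM in WT MEFs, above all 6 neurosphere lines given before. It was 7.23-fold lower in KO neurospheres (log2 -2.85, adjusted p = 0.0160 by edgeR) and 7.23-fold lower in WT neurospheres (0.0114). Ccne2 had 2, 1 and 56 counts in KO neurospheres 1 to 3, so the KO fold depends mostly on KO neurospheres 3. Without that line the log2 was -6.14. Slbp (ENSMUSG00000004642.13, chromosome 5, 33634952 to 33652574, minus strand) had 46.7, 39.7 and 78.7 CPM in KO neurospheres and 108, 155, 129, 105 and 95.8 CPM in KO MEFs. In WT lines it had 44.8, 35.0 and 70.0 CPM in neurospheres and 113, 179 and 120.2 CPM in MEFs. All neurosphere lines lay below all MEF lines, and Slbp was 2.12-fold lower in KO neurospheres and 2.70-fold lower in WT neurospheres (edgeR adjusted p = 0.00778 in KO and 0.00921 in WT lines).

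Rrm2 had 149, 311, 219, 152 and 172 CPM in KO MEFs and 162, 215 and 155 CPM in WT MEFs, above all neurosphere lines. It was 6.13-fold lower in KO neurospheres (log2 -2.62, SE 0.78, edgeR adjusted p = 0.0189) and 7.37-fold lower in WT neurospheres (log2 -2.88, SE 0.66, adjusted p = 0.0120). Tyms, which makes thymidylate, had 4.54, 9.62 and 33.9 CPM in KO neurospheres and 59.7, 68.9, 65.1, 52.7 and 49.4 CPM in KO MEFs. In WT lines it had 8.42, 17.7 and 17.1 CPM in neurospheres and 53.2, 69.4 and 52.2 CPM in MEFs. The groups did not overlap, and Tyms was 3.53-fold lower in KO neurospheres and 3.97-fold lower in WT neurospheres (edgeR adjusted p = 0.0172 in KO and 0.00289 in WT lines). Rrm1 had 46.7, 33.1 and 149.8 CPM in KO neurospheres, against 192, 323, 186, 242 and 221 CPM in KO MEFs. It had 49.8, 83.1 and 89.9 CPM in WT neurospheres, against 167, 199.9 and 217 CPM in WT MEFs, and was 2.97-fold lower in KO neurospheres and 2.58-fold lower in WT neurospheres (edgeR adjusted p = 0.0193 in KO and 0.00557 in WT lines). Mcm4 had 177, 224, 210.3, 160.3 and 197 CPM in KO MEFs and 178, 219.7 and 185 CPM in WT MEFs, above every neurosphere line, although KO neurospheres 3 came close. It was 2.70-fold lower in KO neurospheres (edgeR adjusted p = 0.0322) and 4.93-fold lower in WT neurospheres (adjusted p = 0.00102).

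The other 5 members that fell in KO neurospheres were Gins4, Cdt1, Pola1, Fen1 and E2f1, the last with 2, 4 and 31 counts in KO neurospheres 1 to 3. Fen1 averaged 5.95 ± 4.85 CPM in KO neurospheres (SD, n = 3) and 21.6 ± 2.91 CPM in KO MEFs (SD, n = 5), with an edgeR adjusted p of 0.00741. The other 10 that fell in WT neurospheres were Mcm2, Mcm3, Mcm6, Mcm7 and Gins2 of the helicase, Cdc6, Pcna, Rfc5, Prim1 and Tk1. Cdc6 averaged 2.76 ± 2.16 CPM in WT neurospheres and 20.4 ± 8.95 CPM in WT MEFs (SD, n = 3 each), with 1, 7 and 13 counts in WT neurospheres 1 to 3. Pcna averaged 81.3 ± 40.1 CPM in WT neurospheres and 216 ± 91.0 CPM in WT MEFs. By role, nucleotide supply had 3 of 4 lower in KO lines and 4 of 4 in WT lines, the S phase regulators 4 of 4 in KO lines and 3 of 4 in WT lines, and the helicase 2 of 11 in KO lines and 6 of 11 in WT lines. The clamp and its loader had 0 of 6 in KO lines and 2 of 6 in WT lines, and lagging strand and repair 1 of 3 in KO lines and 0 of 3 in WT lines. Loading and firing and the polymerases with primase had 1 each in KO and in WT lines, and RPA had 0 of 2 in both. These role counts include E2f1 in KO lines and Cdc6 in WT lines, which entered the test through MEFs, where they are higher. Over all genes 26.1% fell in KO lines and 20.8% in WT lines. The roles are small, and differences between them were not tested. The smallest differences were those of Rfc3 (log2 -0.11 in KO lines and -0.27 in WT lines), Rfc1 (-0.28 in KO and -0.11 in WT lines), Pold1 (-0.27 in KO and 0.27 in WT lines) and Rpa1 (-0.084 in KO and -0.48 in WT lines).

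The counts of members moved with single lines. In KO lines 32 members (86.5%) were called without KO neurospheres 3, while 26.8% of all genes fell. The members' median log2 was then -2.13, and all 12 of the full comparison were among the 32. KO neurospheres 3 was the highest neurosphere line for 33 of 37 members, so leaving it out lowers the members by the choice of line. Cdc45, Cdc6 and E2f1, which entered through MEFs, are among the 32. The 5 not called then were Gins3, Rfc3, Rfc4, Pold1 and Rpa1. The KO count was 4 (10.8%) without KO neurospheres 1, 6 (16.2%) without KO neurospheres 2 and 6 without KO MEFs 2, while 21.1%, 22.6% and 23.3% of all genes fell in these fits, so the members' share was then below that of all genes. It was 8 to 12 without any other KO MEF line, with 22.9% to 27% of all genes. In WT lines 11 members (29.7%) were called without WT MEFs 3, while 15.2% of all genes fell, and 23 (62.2%) without WT neurospheres 3, while 18.3% fell. Without any other line 12 to 14 members were called, with 14.9% to 22.6% of all genes. Of the 7 members called in both, Mcm4 lost its call in KO lines without KO MEFs 2 or 5 or KO neurospheres 1 or 2, Rrm1 and Rrm2 without KO neurospheres 1, Tyms without KO neurospheres 2, and Ccne1 without KO MEFs 2 or KO neurospheres 1. In WT lines all 7 kept the call under every alternative run.

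**Figure D5:**
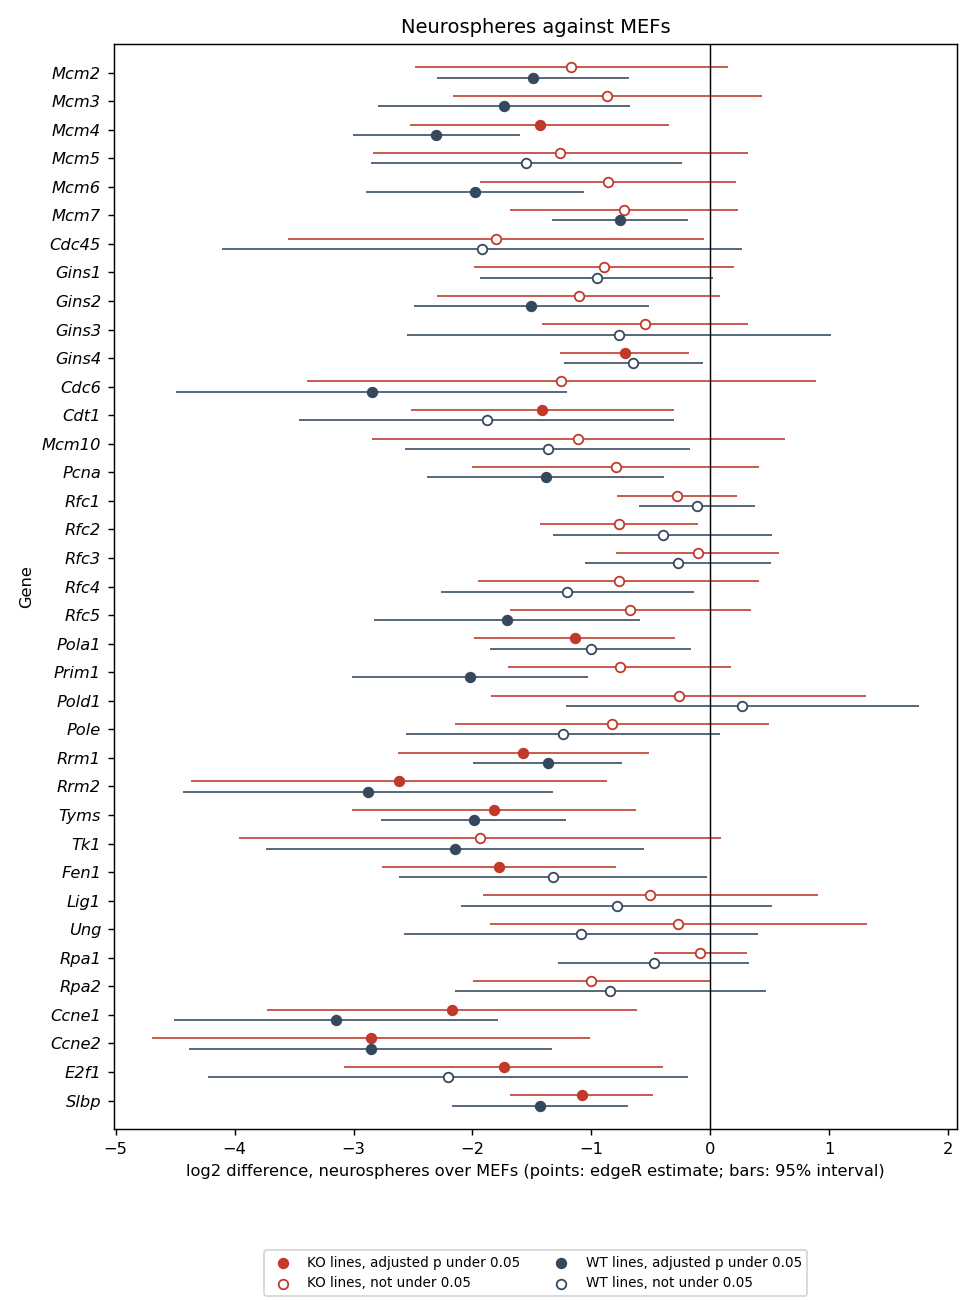
Difference between neurospheres and MEFs for each member, as log2 neurospheres over MEFs with its 95% interval from edgeR, in KO lines (red) and in WT lines (navy). Filled points passed at an adjusted p under 0.05, 12 in KO lines and 17 in WT lines. Pold1 in WT lines is the 1 point above 0.

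Whether the difference between KO and WT lines itself differed between neurospheres and MEFs was tested as an interaction over all 14 libraries, which are those of the comparisons above. By edgeR 0 of 12117 genes (0%) and 0 of 37 members passed. DESeq2 called 3 genes and 0 members, and at an unadjusted p under 0.05 edgeR had 366 genes (3.02%) and 0 members. The interaction, as log2 in neurospheres minus that in MEFs, was positive for 28 members, with a median of 0.27 beside 0.0093 for all genes. Prim1, whose KO MEF lines had 15.9, 29.5, 21.4, 19.4 and 20.4 CPM and WT MEF lines 23.0, 33.1 and 22.3 CPM, had the smallest p, with an interaction of 1.26 (SE 0.62, 95% interval -0.069 to 2.58, edgeR adjusted p = 1.00). Its log2 difference was 0.97 in neurospheres and -0.30 in MEFs, with overlapping groups in both.

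Mcm6 had 94.3, 117, 100.1, 95.4 and 105 CPM in KO MEFs and 96.4, 109.7 and 109 CPM in WT MEFs, all within a narrow range, and an interaction of 1.11 (SE 0.67). Rfc5 had 5.37, 5.41 and 16.4 CPM in KO neurospheres and 3.83, 3.27 and 10.7 CPM in WT neurospheres, with overlapping groups, and an interaction of 1.04 (SE 0.68). Cdc6 had 0.826, 0 and 23.1 CPM in KO neurospheres and 0.383, 3.27 and 4.62 CPM in WT neurospheres. In MEFs Cdc6 had 26.6, 33.9, 12.1, 16.7 and 13.6 CPM in KO lines and 10.3, 23.4 and 27.4 CPM in WT lines. Its groups overlapped in both cell types, and its interaction of 1.58 (SE 1.39) was -2.43 without KO neurospheres 3. The values for Mcm4, whose lines are given above, and for Rpa1, with 49.0, 51.4, 57.8, 48.9 and 53.6 CPM in KO MEFs and 38.5, 55.4 and 49.1 CPM in WT MEFs, were 0.86 (SE 0.62) and 0.40 (SE 0.36). Without KO neurospheres 3, 4 members were positive (Gins3, Rfc5, Prim1 and Rpa1), the median was -0.87, and 7 members had an unadjusted p under 0.05, against 6.25% of all genes. Leaving out this line, the highest neurosphere line for most members, moves the interaction down by the choice of line. The interaction of Prim1 was then 0.51, that of Rfc5 0.26, that of Mcm4 -0.24 and that of Mcm6 -0.0059. In simulated counts of the interaction 19% of 4-fold changes were found, in genes drawn from all those of at least 5 CPM.

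Genes around the members were followed in lists of further replication genes, of the E2F and retinoblastoma pathway and of mitosis and G2/M. In KO neurospheres against KO MEFs, 14 of 46 further replication genes (30.4%) fell and 0 rose by edgeR at an adjusted p under 0.05, with a median log2 of -0.82, where 26.1% of all genes fell. Among them were Dbf4, the partner of the kinase that fires origins (-2.14), Topbp1 and Ticrr, which act in firing (-1.47 and -1.34), and Pole4, a polymerase epsilon subunit (-1.06). Of 31 genes of the E2F and retinoblastoma pathway 6 (19.4%) fell and 4 (12.9%) rose, both below the shares of all genes, with a median of -0.34. Rb1, the retinoblastoma gene (2.58), its relative Rbl2 (1.86), the cell cycle inhibitor Cdkn1b (1.44) and Lin52 (2.25) rose. The D cyclin gene Ccnd3 (-1.88), the inhibitors Cdkn1c (-5.92) and Cdkn2b (-2.65) and Tfdp1, a partner of E2F proteins (-1.17), were among those that fell. Cdkn1c averaged 0.66 CPM in KO neurospheres and 38.7 CPM in KO MEFs, so the size of its fall is uncertain. In neurospheres alone, 40 further replication genes and 29 of this pathway passed the filter on low counts. The others tested here entered through the MEF lines. Of 38 genes of mitosis and G2/M 14 (36.8%) fell and 1, Pttg1 (1.04), rose, with a median of -1.92, and Anln (-3.39), Ccnb2 (-3.02), Kif20a (-2.25) and Birc5 (-2.28) were among those that fell.

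In WT neurospheres against WT MEFs, 16 of 45 further replication genes (35.6%) fell and 1 rose by the same test, with a median log2 of -1.15, where 20.8% of all genes fell. Dbf4 (-2.01), Orc6 (-1.66), Topbp1 (-1.61) and Dut, which keeps uracil out of DNA (-2.16), were among those that fell, and Orc5, of the origin recognition complex, rose (1.06). Of 30 genes of the E2F and retinoblastoma pathway 11 (36.7%) fell and 3 (10%) rose, with a median of -0.75. The share that rose was below the 20.8% of all genes that rose. Rb1 (2.13), Rbl2 (1.23) and Cdkn1b (1.54) rose, and Cdkn2b (-3.92), Ccnd3 (-1.87), Tfdp1 (-1.74) and Skp2 (-1.501) were among those that fell. Of 38 genes of mitosis and G2/M 25 (65.8%) fell and 0 rose, with a median of -1.79. Anln (-3.47), Aurka (-2.87), Cenpe (-1.73) and Tpx2 (-1.97) were among those that fell. Here too, some of the further replication and pathway genes passed the filter on low counts only with the MEF lines.

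Between KO and WT lines, 0 genes of the 3 lists passed in either cell type. In neurospheres 29 of 40 further replication genes had positive values (median 0.31), 21 of 29 of the E2F and retinoblastoma pathway (median 0.20) and 28 of 38 of mitosis and G2/M (median 0.14). In MEFs these were 27 of 46 (median 0.07), 13 of 31 (median -0.02) and 30 of 38 (median 0.10). The smallest p among further replication genes belonged to Orc6 in neurospheres, at 31.3 ± 7.54 CPM in KO and 18.6 ± 2.80 CPM in WT lines (SD, n = 3 each; log2 0.77), and to Recql4 in MEFs, at 3.47 ± 0.99 CPM in KO (n = 5) and 1.1 ± 0.43 CPM in WT lines (n = 3; log2 1.66). In the E2F and retinoblastoma pathway it belonged to E2f6, an E2F family member that represses, in neurospheres, at 57.6 ± 14.6 CPM in KO and 31.2 ± 2.92 CPM in WT lines (log2 0.90). Ticrr was at log2 0.36, Lin52 at -0.78, E2f5 at 0.42, Cenpe at 0.30 and Tacc3 at 0.33 in MEFs, and Wdhd1 at 1.31, Rbl2 at 0.83, Ccnb2 at -0.71 and Aurkb at 0.75 in neurospheres. For each of these genes the edgeR adjusted p was 1.00 in MEFs and 0.999 in neurospheres.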

How the data were processed

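Libraries were made with a QuantSeq 3′ forward kit, per the labels' protocols, so reads come from transcript ends. The values deposited are expected counts for each transcript, which the authors made with Salmon 1.1.0 per the submitters' processing notes; these also name edgeR, without a version. No trimming, index or strand setting is given in the sources used here.

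Transcripts were matched to GENCODE M21 (GRCm38). Of 116945 per file, 115638 matched with version and 385 by identifier, and the 922 others, with 0.239% to 0.400% of reads, were left out. Expected counts were summed per gene (35519 genes) and rounded, with totals of 1669867 to 3296493. All 37 members are listed. Each comparison was fitted in R 4.3.3 with edgeR 4.0.16: TMM factors, the default low-count filter, a robust quasi-likelihood test and Benjamini-Hochberg adjustment over all genes tested, with 0.05 as threshold. A 0 was read as up to 3 counts; this floor covers counting error alone, as these files do not separate PCR copies. The series design text calls the lines independent. Replicates differed by more than sampling noise. Values by line are given for the 6 members with the smallest p in each KO comparison and the interaction, and for members called in both cell type comparisons (at most 4 per role). Of other lists up to 4 called genes per direction, or the 2 with the smallest p, are named. The members, lists and rule were chosen with earlier results of these data known. The tests were checked on simulated counts with 100 genes changed at each fold. Genes were drawn independently there. Alternatives were DESeq2 1.42.0, size factors or library totals in place of TMM, no mitochondrial transcripts, no filter, a stricter filter (5 CPM), 1 fit over 14 libraries, a replicate number block, and single lines left out. The fit without WT MEFs 2 and KO MEFs 3, the ratios with low counts set to 3 and the counts over genes past the neurosphere filter were added after the data were seen. Promoter words were matched exactly.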

Additional observations from a re-analysis of the deposited data

Results flagged for a closer look

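Mcm5, a subunit of the helicase ring, stood apart in KO MEFs 2 with 48.0 CPM, while the other KO MEF lines had 31.7 to 35.7 CPM. The gap to the next line was 0.751 of the group's whole range, beyond Dixon's 95% limit for 5 values. This was the 1 such value among the 37 members in KO MEFs, the 1 group large enough for the test. Chance flags about 1 in 20 genes tested, so 1 flag among 37 genes is no more than chance gives. KO MEFs 2 was the highest MEF line for 17 of 37 members, and WT MEFs 2 had 47.5 CPM of Mcm5.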

How the results depend on the processing

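Direction was followed for 14 gene values past the threshold, those of the 7 members called in both cell type comparisons. Of these, 0 changed direction under any alternative, but values that did not pass did. Of the 18 such gene values given, 8 changed sign: E2f1 in MEFs from -0.36 to 0.10 without WT MEFs 2, and Mcm3, Mcm4, Mcm6 and Gins1 in neurospheres and Mcm4, Mcm6 and Cdc6 in the interaction, all without KO neurospheres 3. The members' median changed sign under some alternative in MEFs (-0.07 to 0.16 with single lines left out), in neurospheres and for the interaction. Counts of all genes passing moved as follows: KO against WT MEFs, where 1 passed, gave 0 with the replicate number as a block and 3 without WT MEFs 2 and KO MEFs 3, which was chosen after seeing the data. KO against WT neurospheres, where 1 passed, gave 7 with DESeq2, 2 with no filter and 0 to 2 with single lines left out. The interaction gave 3 with DESeq2. In KO neurospheres against KO MEFs the block left 3266 of 5885 genes and 7 of 12 members. The replicate numbers did not pair lines: over the same-numbered lines the correlation of deviations ran from -0.542 to 0.025 in MEFs and from -0.092 to 0.182 in neurospheres. With the block the median of the members was 0.13 in MEFs, 0.09 in neurospheres and -0.19 for the interaction. In WT neurospheres against WT MEFs 20 members were called with the block and 17 without it. The share of all genes that fell in that block fit is not given here.

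With single lines left out, the members' median in KO against WT neurospheres ran from -0.64 to 0.80, and for the interaction from -0.87 to 0.76, the lowest in both without KO neurospheres 3. Members called ran from 4 to 32 in KO neurospheres against KO MEFs, whose median ran from -2.13 to -0.67, and from 11 to 23 in WT neurospheres against WT MEFs. In KO lines Mcm4 and Rrm2 lost their calls with no filter (adjusted p = 0.0567 and 0.0660) and Rrm1 and Ccne1 with the block (0.0705 and 0.116), while DESeq2 gave no adjusted p for Ccne2. With size factors or library totals the members' medians were -1.01 and -0.95 between cell types in KO lines and -1.41 and -1.39 in WT lines. In neurospheres 3 of 37 members did not pass the filter on low counts. Of simulated 2-fold changes, in genes of at least 5 CPM, 16% were found in MEFs and 4% in neurospheres.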
